A study of Mus musculus with 12 samples.

Results

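The genes described here are 10 regulators and markers of the adipogenic, osteogenic and chondrogenic lineages: Pparg, Cebpa, Cebpb, Cebpd, Fabp4, Lpl, Runx2, Sox9, Alpl and Spp1. They were chosen by name, as a list of lineage genes, from the 24100 genes of the count table. All 10 passed the filter on low counts and were among the 14263 genes tested. RNA was sequenced from mouse embryonic fibroblasts (MEFs), cultured mesenchymal cells, immortalized with SV40 large T antigen. The MEFs came from 2 lines with different mothers, each with wild-type cells (WT, Rtf2+/+) and cells carrying a null and a floxed allele (RTF2-deficient, Rtf2-/lox). Cells of both genotypes received a retrovirus expressing Cre, the recombinase that deletes the floxed part of Rtf2, 72 hrs before collection, so the WT groups also carried Cre. Each of the 4 groups had 3 libraries, which the study calls technical replicates. P-values therefore measure the spread within groups, and the 2 lines are the only replicates of embryos. Cre is the only treatment the labels name.

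Pparg encodes the nuclear receptor that acts as the master regulator of fat cell formation. In the textbook sequence, Cebpb and Cebpd are induced early and switch on Pparg and Cebpa, which maintain each other and drive genes of mature fat cells such as Fabp4 and Lpl. Runx2 and Sox9 encode the transcription factors that direct mesenchymal cells to bone and to cartilage, and Alpl and Spp1 encode an enzyme of mineralization and the matrix protein osteopontin. Fibroblast cultures of embryos are a common starting material for such differentiation in vitro.

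Promoter sequences are shown for 2 members, Pparg because it is the target of the C/EBP factors in this list, and Spp1 because it had the largest differences between groups in absolute level. RefSeq held promoter entries for 6 of the 10 members, 10 entries in all. Each sequence is the 250 bases before an annotated start in GRCm38.p6, on the + strand, written 5′ to 3′. The Pparg sequence lies at chr6:115421816-115422065, before the most downstream of its 3 entries, inside the annotated gene. It is the only one of the 3 that holds the C/EBP letters searched. Capitals mark the C/EBP letters TTGCNNAA on either strand, which begin 215 and 16 bases before the start and do not overlap. The Spp1 sequence lies at chr5:104434861-104435110, before the first of its 2 entries. Capitals there mark the interferon response letters (GAAA, 2 bases of any kind, then GAAA) and the RUNX letters TGTGGT, each searched on both strands and read here on the reverse strand, which begin 157 and 128 bases before the start and do not overlap. The other Spp1 entry holds neither.
Pparg: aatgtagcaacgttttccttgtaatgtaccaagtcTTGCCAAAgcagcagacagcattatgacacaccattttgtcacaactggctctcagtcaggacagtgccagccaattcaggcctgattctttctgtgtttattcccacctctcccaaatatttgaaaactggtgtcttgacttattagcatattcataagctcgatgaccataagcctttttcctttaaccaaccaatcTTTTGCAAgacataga
Spp1: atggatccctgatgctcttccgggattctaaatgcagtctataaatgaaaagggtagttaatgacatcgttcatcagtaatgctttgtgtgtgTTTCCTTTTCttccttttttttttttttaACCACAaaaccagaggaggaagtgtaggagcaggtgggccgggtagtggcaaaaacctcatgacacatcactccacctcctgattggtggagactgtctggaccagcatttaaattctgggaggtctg
Among 32851 promoter entries of the same length, 9.56% held the C/EBP letters, 14.0% the RUNX letters and 2.98% the interferon response letters. These matches describe letters in the reference and not binding. Counts per gene do not tell which start was used.

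Library totals lay between 39360167 and 44695002 counts. Rtf2 averaged 45.6 CPM (counts scaled to a common library size, TMM-normalized) in WT line 1 and 53.9 CPM in WT line 2, against 5.79 and 6.49 CPM in the RTF2-deficient groups. An interferon score was taken per library as the median log2 CPM over 18 genes that interferon induces. It ranged from 5.10 to 8.79 for WT line 2 and from 2.35 to 7.37 for RTF2-deficient line 2, but only from 1.05 to 4.30 for line 1. The female-specific transcript Xist was at 121 CPM in WT line 1, 117 in RTF2-deficient line 1 and 141 in RTF2-deficient line 2, but at 0.0592 CPM in WT line 2, where the Y-linked gene Ddx3y was at 101 CPM against at most 0.0975 CPM elsewhere. Genotype and embryo sex therefore cannot be told apart within line 2, nor line and sex between the WT groups. The comparison over both lines and the difference of the genotype effect between lines also use the WT line 2 libraries. Sex is partly mixed with genotype in the former and cannot be told apart from the latter.

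The cells expressed fibroblast genes and lacked markers of mature fat and bone cells. All 12 fibroblast markers on the list (collagens, Thy1, Pdgfra and others) passed the filter, with summed levels of 19621 to 31838 CPM, although 2 of them averaged under 1 CPM. None of the 6 markers of mature adipocytes (Adipoq, Plin1, Cidec, Lep, Cfd and Retn) passed it, and their summed level was at most 0.0736 CPM in any library. The adipsin gene Cfd had no count in any library. Of 6 markers of mature osteoblasts and osteocytes, 2 passed the filter, with a summed level of at most 2.17 CPM, and Mepe had no count. Of 6 chondrocyte markers, 3 passed the filter and were high: Col2a1, the main cartilage collagen, was at 722 to 2443 CPM over the libraries, Col10a1 at 21.6 to 303 CPM and Acan at 20.0 to 169 CPM. Matn1, Cnmd and Snorc, also on the chondrocyte list, reached at most 0.263 CPM. Of other cell types, the listed endothelial markers summed to 10.7 to 21.6 CPM, the epithelial ones to 22.1 to 90.8 CPM and the skeletal muscle ones to 3.39 to 18.6 CPM. Muscle sums were 12.8 to 18.6 CPM in RTF2-deficient and 6.47 to 9.49 CPM in WT line 2. Endothelial sums were 17.7 to 21.6 CPM in RTF2-deficient and 10.7 to 14.7 CPM in WT line 1. The genotypes overlapped in the other line for each, and in both lines for the epithelial sums. Of 2 endothelial, 5 epithelial and 2 muscle markers tested, Kdr and Krt18 were called higher in RTF2-deficient MEFs over both lines (0.58 ± 0.17 and 0.74 ± 0.21 on the log2 scale), and none was called within either line. In WT line 2 against WT line 1, the keratin genes Krt18 (1.94 ± 0.32) and Krt8 (3.74 ± 1.02, from 0.0160 CPM in WT line 1) were called higher and Myod1, a muscle regulator at 1.13 CPM in WT line 1, was called lower. The part of such cells in the results was not tested. None of 10 cell cycle genes was called in any comparison in edgeR. The regulators of fat and bone formation were thus measured without the terminal markers of those cells, whereas cartilage collagens were present. In bulk RNA, fewer cells of a type and less RNA per cell cannot be told apart.

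**Figure D1:**
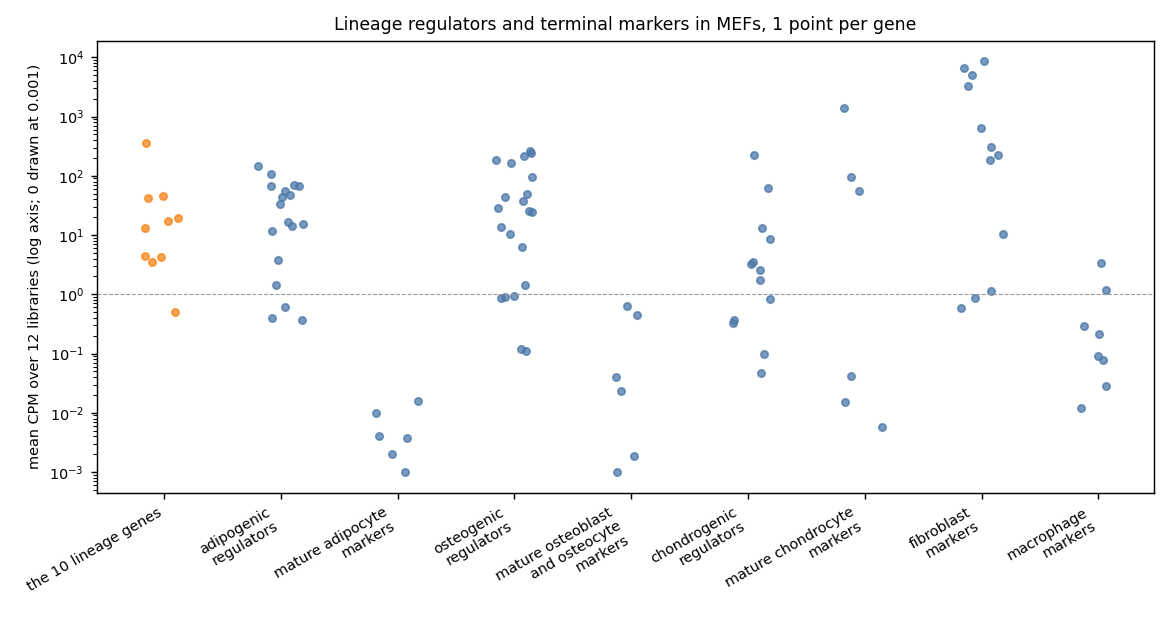
Mean TMM-normalized CPM over the 12 libraries (log axis, 0 drawn at 0.001) for each gene of the 10 lineage genes and 8 marker or regulator lists, 1 point per gene, with a dashed line at 1 CPM. Of the lineage genes only Alpl lies below the line, and the 6 mature adipocyte markers all lie far below it.

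Per kilobase of the principal transcript, the scale on which genes can be compared, Spp1 had the highest level at 237 CPM per kb, above 98.3% of the genes tested. Cebpb (13.0), Sox9 (10.3), Runx2 (7.62) and Pparg (7.46 CPM per kb) followed. Fabp4 (4.89) and Cebpd (4.63) came next, then Cebpa (1.31), Lpl (1.03) and Alpl (0.202 CPM per kb). Spp1 exceeded Cebpb, Cebpd exceeded Cebpa, and Lpl exceeded Alpl in 12 of 12 libraries. The other neighbours changed places between libraries: Cebpb was above Sox9 in 9, Sox9 above Runx2 in 9, Runx2 above Pparg in 8, Pparg above Fabp4 in 10, Fabp4 above Cebpd in 6 and Cebpa above Lpl in 8 of the 12 libraries.

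Over both lines, RTF2-deficient and WT MEFs were compared with edgeR's quasi-likelihood test with a term for line, and genes were called at a Benjamini-Hochberg adjusted p under 0.05. None of the 10 genes was called, against 13.2% of all genes tested (4.98% higher and 8.18% lower, and 1.74% past a log2 fold change of 1). At an unadjusted p under 0.05 there were 5 (background 28.5%), and DESeq2 called 3 (Cebpa, Cebpb and Sox9; background 18.9%). With the technical triplicates summed to 1 sample per group, edgeR called none of the 14263 genes over both lines, where 2737 had an unadjusted p under 0.05, so each call over both lines in the text rests on the triplicates counted as samples. Within line 1, edgeR called none of the 10 (background 3.20% of genes, 0.680% higher and 2.52% lower, and 0.918% past a log2 fold change of 1), 2 had an unadjusted p under 0.05 (background 13.9%), and DESeq2 called Spp1 (background 5.97%). Within line 2, edgeR called 2 (background 12.5%), Fabp4 as lower (background 7.03%) and Lpl as higher (background 5.42%) in RTF2-deficient MEFs, neither past a log2 fold change of 1 (background 3.79%). DESeq2 called 4 in line 2, adding Pparg and Cebpb (background 18.1%), and 6 had an unadjusted p under 0.05 (background 27.8%). For the difference of the genotype effect between lines, edgeR called no gene of the list (background 1.29%, 0.757% higher and 0.533% lower, and 1.05% past a log2 difference of 1). Of the members, 3 had an unadjusted p under 0.05 there (background 8.49%), and DESeq2 called Spp1 (background 2.87%). WT line 2 against WT line 1 gave 4 calls in edgeR (background 14.0%), more than any comparison of genotypes: Fabp4 and Spp1 were higher (background 6.70%), both past a log2 fold change of 1 (background 6.77%), and Cebpd and Sox9 were lower (background 7.31%) in WT line 2. There, 6 had an unadjusted p under 0.05 (background 28.1%) and DESeq2 called 5 (background 19.3%). Same-numbered libraries deviated together in the WT groups and RTF2-deficient line 1, and with the replicate number as a block in these 3 groups edgeR called 7 members between the WT lines, adding Pparg, Cebpb and Runx2, and 26.6% of all genes. The comparisons within line 2 and between the WT lines share the WT line 2 libraries, so an extreme value there enters both with opposite sign.

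**Figure D2:**
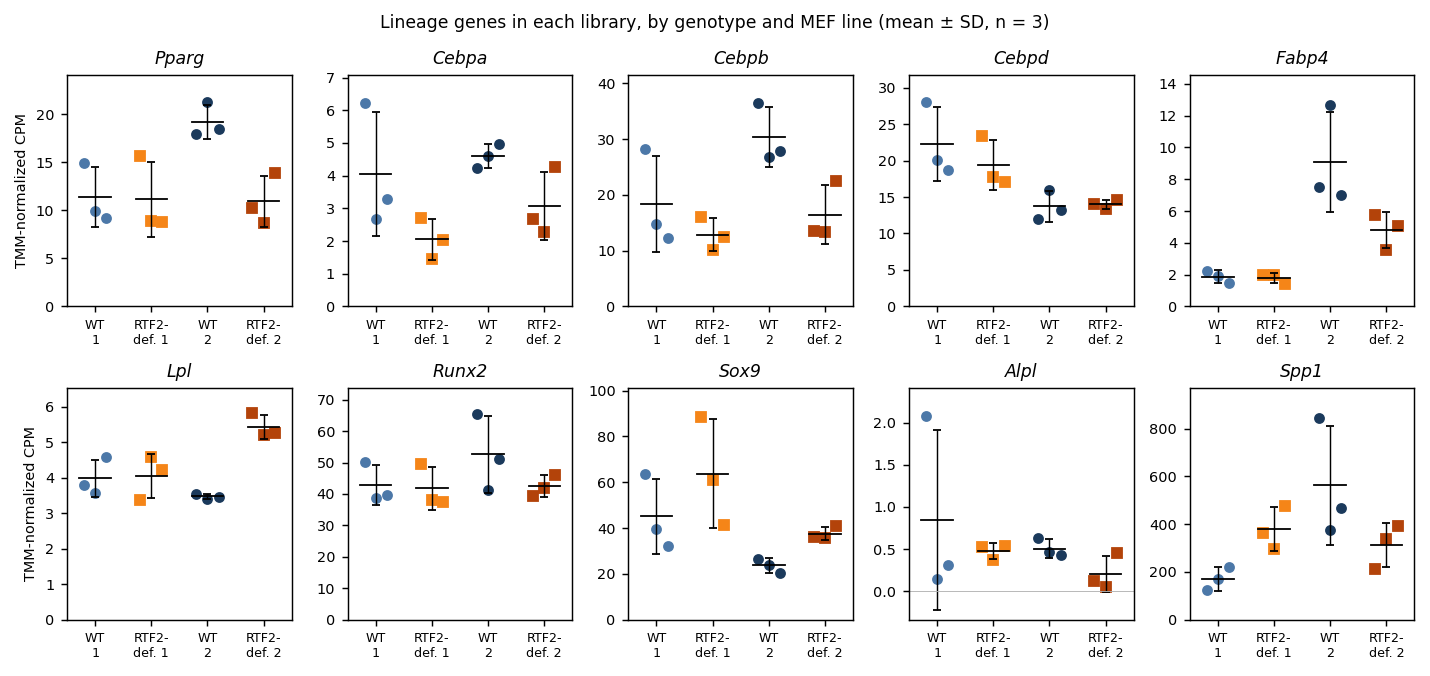
TMM-normalized CPM (y axis, linear, a separate scale for each gene) of the 10 genes in every library, by genotype and MEF line, with the mean and SD of 3 libraries. Fabp4 is higher in all line 2 libraries than in all line 1 libraries, and all RTF2-deficient line 1 libraries are above all WT line 1 libraries for Spp1.

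Pparg (chromosome 6, 115360951 to 115490399, + strand, GRCm38 as all positions here) was separated by genotype in line 2 and overlapped in line 1. In line 1 its replicates 1, 2 and 3 were at 15.0, 9.91 and 9.24 CPM in WT and at 15.7, 8.93 and 8.83 CPM in RTF2-deficient MEFs. The line 2 libraries were at 18.0, 21.3 and 18.4 CPM in WT and at 10.3, 8.70 and 13.9 CPM in RTF2-deficient MEFs. The 3 WT line 2 libraries were the highest of all 12, and the libraries of the other 3 groups lay between 8.70 and 15.7 CPM. The log2 fold change, RTF2-deficient over WT, was -0.03 ± 0.26 (SE) in line 1 and -0.81 ± 0.26 in line 2, with edgeR adjusted p of 0.981 and 0.0656. DESeq2 called the line 2 difference (adjusted p = 0.0198), and edgeR did so without RTF2-deficient line 1 replicate 1 (adjusted p = 0.0312) or RTF2-deficient line 2 replicate 3 (adjusted p = 0.0385). WT line 2 exceeded WT line 1 by 0.76 ± 0.26 on the log2 scale without overlap (edgeR adjusted p = 0.0770). Over both lines the difference by genotype was -0.42 ± 0.21 (adjusted p = 0.212), and -0.61 and called without RTF2-deficient line 1 replicate 1 (adjusted p = 0.0315). The difference between the WT lines was called by DESeq2 (adjusted p = 0.0310), and by edgeR without WT line 1 replicate 1 (adjusted p = 0.0423), without RTF2-deficient line 1 replicate 1 (adjusted p = 0.0395) or with the replicate block in 3 groups (0.81, adjusted p = 0.0174).

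Cebpa (chromosome 7, 35119293 to 35121928, + strand), the partner of Pparg in fat cells, had the lower mean in RTF2-deficient MEFs of both lines. Its replicates 1, 2 and 3 were at 6.21, 2.68 and 3.28 CPM in WT line 1 and at 2.70, 1.45 and 2.02 CPM in RTF2-deficient line 1. Those of line 2 were at 4.23, 4.59 and 4.98 CPM in WT and at 2.67, 2.28 and 4.25 CPM in RTF2-deficient MEFs. The groups overlapped slightly in each line, at 2.70 against 2.68 CPM in line 1 and at 4.25 against 4.23 CPM in line 2, and at each of the 3 replicate numbers in line 1 the RTF2-deficient library was the lower. Over both lines the log2 fold change was -0.78 ± 0.24 (edgeR adjusted p = 0.0527), just outside the threshold. It was called by DESeq2 (adjusted p = 0.0145), and by edgeR without WT line 1 replicate 2 (adjusted p = 0.0454) and without RTF2-deficient line 2 replicate 3 (adjusted p = 0.0231). The WT lines differed by 0.18 ± 0.34 on the log2 scale, with a 95% interval from -0.56 to 0.92.

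Cebpb (chromosome 2, 167688915 to 167690418, + strand), which acts early in the sequence, was at 28.1, 14.7 and 12.3 CPM in the WT line 1 replicates and at 16.0, 10.2 and 12.4 CPM in those of RTF2-deficient line 1. In line 2 the replicates were at 36.5, 26.7 and 27.8 CPM in WT and at 13.5, 13.4 and 22.5 CPM in RTF2-deficient MEFs. The groups overlapped in line 1 and not in line 2, where all WT libraries were higher. The log2 fold change over both lines was -0.70 ± 0.22 (edgeR adjusted p = 0.0572), from -0.51 ± 0.32 in line 1 and -0.88 ± 0.31 in line 2. Without WT line 1 replicate 1 the line 1 value was -0.060 and that over both lines -0.52. Neither was called within a line by edgeR (adjusted p = 0.555 and 0.0936). DESeq2 called the difference over both lines (adjusted p = 0.0142) and within line 2 (adjusted p = 0.0339). With edgeR it was called over both lines without WT line 1 replicate 3 (adjusted p = 0.0258), and also without WT line 1 replicate 2, RTF2-deficient line 1 replicate 1 or RTF2-deficient line 2 replicate 3. Leaving out WT line 1 replicate 1 or RTF2-deficient line 2 replicate 3 made the line 2 difference a call (adjusted p = 0.0351 and 0.0402). The WT lines differed by 0.72 ± 0.31 (adjusted p = 0.157), and by 1.15 without WT line 1 replicate 1, which made it a call (adjusted p = 0.0217), as did the replicate block in 3 groups (0.79, adjusted p = 0.00820). Cebpb overlaps 312 exonic bases of Tmem189 on the other strand, which was at 45.6 to 53.9 CPM over the libraries. The part of its reads in the Cebpb counts was not tested.

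Cebpd (chromosome 16, 15887286 to 15891031, + strand), the other early member, was separated by line and overlapped between genotypes. It was at 28.1, 20.1 and 18.7 CPM in the WT line 1 replicates and at 23.3, 17.8 and 17.0 CPM in those of RTF2-deficient line 1. Line 2 had 11.9, 16.0 and 13.2 CPM in WT and at 14.0, 13.4 and 14.6 CPM in RTF2-deficient MEFs. Every line 1 library exceeded every line 2 library. The genotypes overlapped in each line, and at each of the 3 replicate numbers in line 1 the RTF2-deficient library was the lower. WT line 2 was below WT line 1 by a log2 fold change of -0.70 ± 0.17 (edgeR adjusted p = 0.0209), a call lost without WT line 1 replicate 1 (adjusted p = 0.0677), WT line 2 replicate 1 (adjusted p = 0.0769) or WT line 2 replicate 3 (adjusted p = 0.0664). The genotype effect over both lines was -0.09 ± 0.12 on the log2 scale, with a 95% interval from -0.35 to 0.18. Cebpd shares 562 exonic bases with Spidr on the other strand, which was at 32.4 to 40.4 CPM over the libraries.

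Fabp4 (chromosome 3, 10204088 to 10208576, - strand), which encodes the fatty acid binding protein of fat cells and macrophages, showed the largest difference between lines. Its replicates were at 2.25, 1.91 and 1.45 CPM in WT line 1 and at 1.96, 1.99 and 1.44 CPM in RTF2-deficient line 1. In line 2 they were at 7.51, 12.7 and 6.99 CPM in WT and at 5.75, 3.57 and 5.09 CPM in RTF2-deficient MEFs. All line 2 libraries exceeded all line 1 libraries, and within line 2 the WT libraries were all above the RTF2-deficient ones. WT line 2 exceeded WT line 1 by a log2 fold change of 2.28 ± 0.28, or 4.86-fold (edgeR adjusted p = 0.000355), and this call held with each of the 12 libraries left out in turn. Within line 2, RTF2-deficient MEFs were lower by a log2 fold change of -0.92 ± 0.27 (edgeR adjusted p = 0.0465). The latter call was lost when any 1 of the 12 libraries was left out, with adjusted p from 0.0503 without WT line 2 replicate 3 to 0.190 without RTF2-deficient line 2 replicate 2, and without WT line 2 replicate 2 the log2 fold change was -0.59. In line 1 the log2 fold change was -0.06 ± 0.28, and the difference of the effects between lines was -0.86 ± 0.39 (adjusted p = 0.586).

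Since macrophages also make Fabp4, their markers are given beside it. Of 8 macrophage markers 4 passed the filter, and their summed level was 2.55 to 3.85 CPM in WT line 1, 3.02 to 3.56 in RTF2-deficient line 1, 7.25 to 10.3 in WT line 2 and 5.27 to 6.36 CPM in RTF2-deficient line 2. The sum was mainly Cd68, a lysosomal gene not confined to macrophages, with 6.72 CPM in WT line 2 and 1.66 CPM in WT line 1. Like Fabp4, Cd68 was called higher in WT line 2 than in WT line 1 (2.02 ± 0.22 on the log2 scale, edgeR adjusted p = 0.000159) and lower in RTF2-deficient than in WT MEFs of line 2 (-1.07 ± 0.21, adjusted p = 0.00809), and it was the only macrophage marker called in any comparison. The pan-leukocyte gene Ptprc reached at most 0.122 CPM in any library. The part of macrophages in the Fabp4 level was not tested.

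Lpl (chromosome 8, 68880491 to 68907448, + strand), the lipase that releases fatty acids from lipoproteins, moved opposite to Fabp4 in line 2. It was at 3.80, 3.57 and 4.58 CPM in the WT line 1 replicates and at 3.37, 4.59 and 4.22 CPM in those of RTF2-deficient line 1. Its line 2 levels were 3.54, 3.42 and 3.47 CPM in WT and at 5.82, 5.21 and 5.27 CPM in RTF2-deficient MEFs. The genotypes overlapped in line 1, while in line 2 the RTF2-deficient libraries were above all other libraries of the study. The log2 fold change was 0.64 ± 0.15 in line 2 (edgeR adjusted p = 0.0165) and 0.03 ± 0.15 in line 1. The line 2 call was lost without RTF2-deficient line 2 replicate 1 (adjusted p = 0.0726) or replicate 2 (adjusted p = 0.0503). The difference between the effects, 0.62 ± 0.21, was not called (adjusted p = 0.304). Over both lines the log2 fold change was 0.34 ± 0.14 (adjusted p = 0.127), called in edgeR without RTF2-deficient line 1 replicate 1 (adjusted p = 0.0428).

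**Figure D3:**
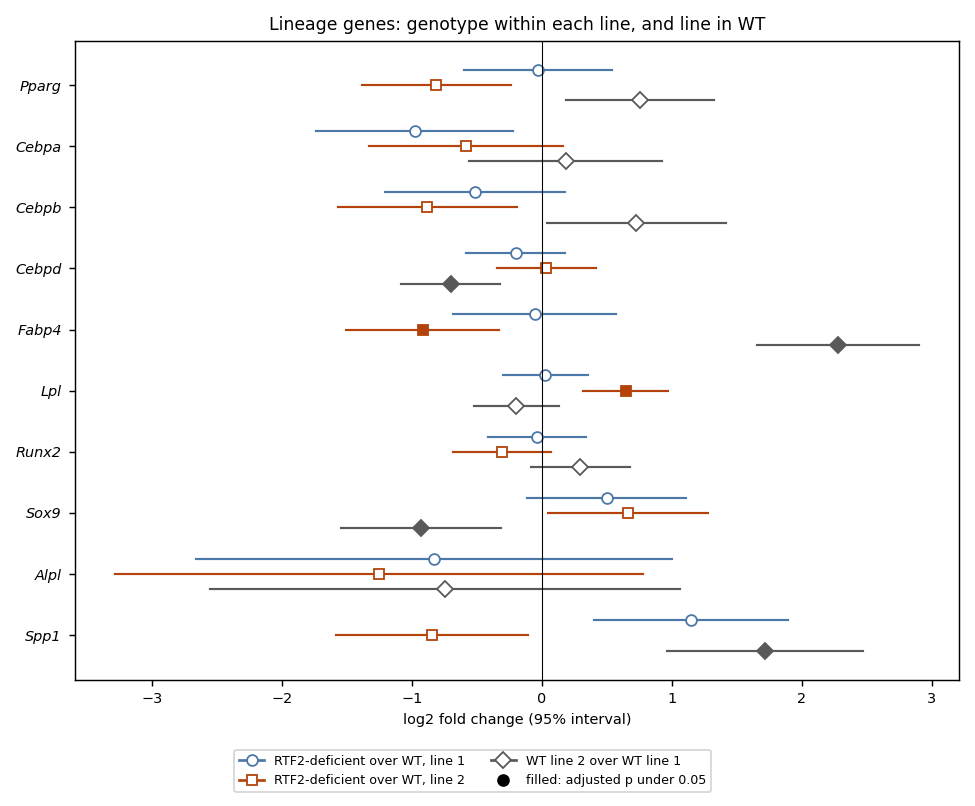
Log2 fold changes (x axis) of the 10 genes with 95% intervals from edgeR for RTF2-deficient over WT MEFs in line 1 and in line 2 and for WT line 2 over WT line 1, with filled symbols at an adjusted p under 0.05. The filled symbols are Fabp4 and Lpl for line 2, and Cebpd, Fabp4, Sox9 and Spp1 for the WT lines.

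Runx2 (chromosome 17, 44495987 to 44814797, - strand), the regulator of bone formation, varied least among the transcription factors. Its replicates were at 50.3, 38.8 and 39.6 CPM in WT line 1 and at 49.7, 38.2 and 37.6 CPM in RTF2-deficient line 1. Line 2 was at 65.5, 41.3 and 51.2 CPM in WT and at 39.4, 41.9 and 46.2 CPM in RTF2-deficient MEFs. All groups overlapped, and the highest library was 1.74 times the lowest. The genotype effect was -0.17 ± 0.12 on the log2 scale over both lines (edgeR adjusted p = 0.381), with a 95% interval from -0.44 to 0.10. Between the WT lines it differed by 0.30 ± 0.17 (adjusted p = 0.300), and by 0.28 with the replicate block in 3 groups, which made it a call (adjusted p = 0.0315). Without WT line 2 replicate 1 it was 0.093, and the genotype effect over both lines was then -0.068. Runx2 shares 519 exonic bases with the antisense gene Runx2os1, whose reads cannot be separated here.

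Alpl (chromosome 4, 137741733 to 137796384, - strand), the tissue-nonspecific alkaline phosphatase used as a stain for osteoblast cultures, was near the limit of measurement. It had 87, 6 and 13 reads in the WT line 1 replicates, 22, 15 and 22 in RTF2-deficient line 1, 29, 21 and 18 in WT line 2 and 5, 2 and 20 in RTF2-deficient line 2. The corresponding levels were 2.08, 0.149 and 0.314 CPM, then 0.525, 0.368 and 0.536 CPM, then 0.630, 0.463 and 0.425 CPM, and last 0.120, 0.0513 and 0.452 CPM. All groups overlapped: WT line 1 held the highest library and another at 0.149 CPM, below every library of RTF2-deficient line 1 and WT line 2. The log2 fold change over both lines was -1.02 ± 0.60 (edgeR adjusted p = 0.283), and -0.26 without WT line 1 replicate 1. In line 1 it was -0.83 ± 0.83 and turned to 1.05 without WT line 1 replicate 1. The differences by genotype were within the spread of the libraries.

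Spp1 (chromosome 5, 104435118 to 104441050, + strand), the gene of osteopontin, was the only member whose genotype effects had opposite signs in the 2 lines with both 95% intervals on 1 side of zero. Its replicates were at 123, 169 and 222 CPM in WT line 1 and at 365, 295 and 478 CPM in RTF2-deficient line 1. In line 2 they were at 846, 375 and 469 CPM in WT and at 211, 338 and 392 CPM in RTF2-deficient MEFs. In line 1 every RTF2-deficient library was above every WT library, and in line 2 the groups overlapped, with WT line 2 replicate 1 far above the rest. The log2 fold change was 1.15 ± 0.34 in line 1 (edgeR adjusted p = 0.111) and -0.84 ± 0.34 in line 2 (adjusted p = 0.128). The difference between these effects was -1.99 ± 0.48 on the log2 scale, with an adjusted p of 0.0899 in edgeR and 0.000979 in DESeq2. DESeq2 also called the line 1 difference (adjusted p = 0.00896), as did edgeR without WT line 2 replicate 1 (adjusted p = 0.0487). That library also set much of the line 2 value, which was -0.42 without it. WT line 2 exceeded WT line 1 by 1.72 ± 0.34 on the log2 scale, or 3.29-fold (edgeR adjusted p = 0.00683), a call kept with each library left out in turn. Spp1 shares 309 exonic bases with Gm42793 on the same strand, whose reads cannot be separated here.

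Sox9 (chromosome 11, 112782224 to 112787760, + strand), the regulator of cartilage formation, had the higher mean in RTF2-deficient MEFs of both lines. Its replicates were at 63.5, 39.5 and 32.2 CPM in WT line 1 and at 88.6, 61.2 and 41.4 CPM in RTF2-deficient line 1. Sox9 in line 2 was at 26.7, 24.0 and 20.4 CPM in WT and at 36.3, 35.5 and 40.8 CPM in RTF2-deficient MEFs. The groups overlapped in line 1, where the RTF2-deficient library was the higher at each of the 3 replicate numbers, and not in line 2, and WT line 2 was below every other library. The log2 fold change was 0.50 ± 0.28 in line 1, 0.66 ± 0.28 in line 2 and 0.58 ± 0.19 over both lines (edgeR adjusted p = 0.0667). The line 1 value was 0.18 without RTF2-deficient line 1 replicate 1 and 0.84 without WT line 1 replicate 1. DESeq2 called the difference over both lines (adjusted p = 0.0178), as did edgeR without WT line 1 replicate 1 (adjusted p = 0.0169) or RTF2-deficient line 1 replicate 3 (adjusted p = 0.0235). WT line 2 was below WT line 1 by a log2 fold change of -0.93 ± 0.28 (edgeR adjusted p = 0.0498). This call was lost in 9 of the 12 fits with 1 library left out, with log2 fold changes between -1.04 and -0.61 in those 9, and also with upper quartile normalization or a filter at 1 CPM in 6 libraries (adjusted p = 0.0534 each). With the replicate block in 3 groups it was -0.87 (adjusted p = 0.00247).

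Groups without overlap were common in this table, so their number among the members is read against all genes. In line 2 the genotypes did not overlap for 5 of the 10 genes (Pparg, Cebpb and Fabp4 lower, Lpl and Sox9 higher), against 29.5% of all genes tested. Over both lines it held for 0 genes, against 5.97%. In line 1 this held for Spp1 alone, against 21.1% of all genes. Between the WT lines it held for 6 of the 10 (Pparg, Fabp4 and Spp1 higher, Cebpd, Lpl and Sox9 lower in line 2), against 30.2%. The median log2 fold change of the 10 genes was -0.70 in line 2 and -0.05 in line 1, beside medians near 0 over all genes tested (-0.00 and 0.01). Normalization brings the latter near 0, and members are not independent of each other (Pparg and Cebpb had r = 0.892). The 10 genes were not tested as a set.

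Several members were also highest in the libraries with the highest interferon scores. In each of the 4 groups, the library with the highest score (WT line 1 replicate 1, RTF2-deficient line 1 replicate 1, WT line 2 replicate 1 and RTF2-deficient line 2 replicate 3) was also the highest of its group in Cebpb, Runx2 and Sox9. For Pparg, Cebpa and Cebpd this held in 3 groups, the exception being WT line 2, where that library was the lowest in all of them. Alpl was highest there in 3 groups, all but RTF2-deficient line 1. Over all genes tested, the deviations of these 4 libraries from their group means also correlated with one another (r from 0.309 to 0.654). The share of all genes with such a pattern was not counted, nor was the spread of r with the score over all genes. Over all 12 libraries, which share line and genotype, the log2 levels correlated with the score at r = 0.88 for Cebpb, 0.80 for Runx2, 0.74 for Pparg, 0.73 for Fabp4, 0.72 for Cebpa, 0.57 for Spp1, 0.32 for Alpl, -0.20 for Lpl and -0.52 for both Cebpd and Sox9. With the score as a term in the edgeR fit, the genotype effect on Cebpb over both lines was -0.35 (adjusted p = 0.133) against -0.70 without it, and the difference between the WT lines in Cebpb was -0.09 against 0.72. Pparg differed by genotype over both lines by -0.23 with the term (adjusted p = 0.489) against -0.42, and between the WT lines by 0.35 (adjusted p = 0.458) against 0.76. Fabp4 differed between the WT lines by 2.45 with the term (adjusted p = 0.00134), and Lpl differed by genotype in line 2 by 0.60 (adjusted p = 0.0377). The Spp1 difference between the WT lines fell to 1.02 with the term and was no longer called (adjusted p = 0.144). Within line 1 the Spp1 difference by genotype was 1.23 with the term and was called (adjusted p = 0.0364), and Sox9 over both lines was 0.74 and called (adjusted p = 0.0346). None of the 18 interferon-stimulated genes was called by genotype in edgeR over both lines, with a median log2 fold change of -1.44, and 10 were called higher in WT line 2 than in WT line 1. Alpl, at its low counts, differed between the WT lines by -2.77 with the term and became a call (adjusted p = 0.0277), against -0.74 without it. The scores did not overlap between WT line 1 (1.16 to 4.30) and WT line 2 (5.10 to 8.79). The score and the difference between the WT lines therefore cannot be fully told apart, and those values with the term are description only. Leaving out both libraries with the highest scores, WT line 2 replicate 1 and RTF2-deficient line 2 replicate 3, gave -0.71 for Cebpb over both lines (adjusted p = 0.0632) and 1.29 for Spp1 between the WT lines (adjusted p = 0.0160).

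**Figure D4:**
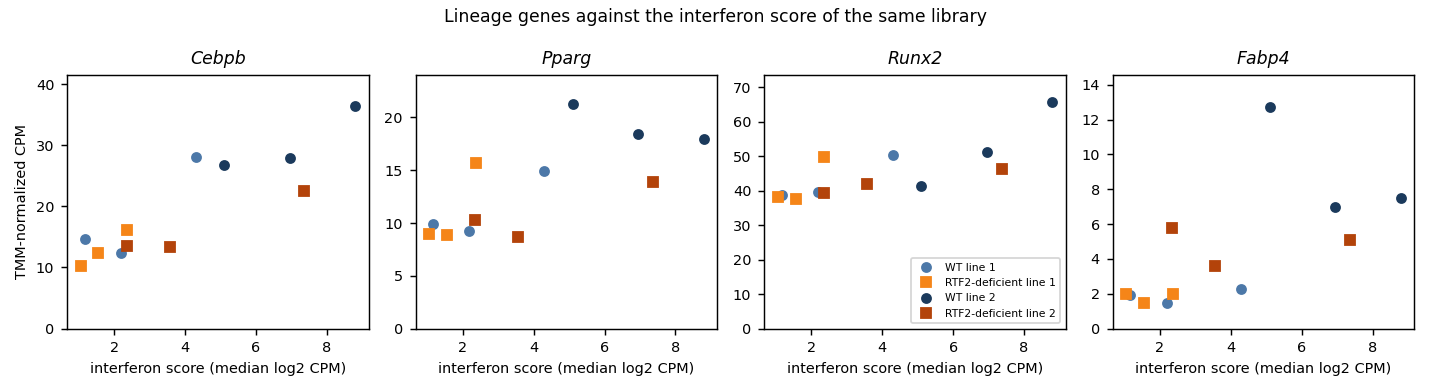
TMM-normalized CPM of Cebpb, Pparg, Runx2 and Fabp4 (y axes) against the interferon score of the same library (x axis, median log2 CPM of the listed interferon-stimulated genes), 1 point per library, for the 4 groups. The highest Cebpb and Runx2 values, 36.5 and 65.5 CPM, belong to WT line 2 replicate 1, which also has the highest score, 8.79.

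Of the other regulators of fat cell formation 3 were called over both lines, a share not above the 13.2% of all genes. Of 18 adipogenic regulators, all tested, 1 was called over both lines: Med1, a Mediator subunit that binds PPARγ, rose by 0.29 ± 0.07 on the log2 scale (edgeR adjusted p = 0.0176), and the median log2 fold change of the list was -0.04 beside 0.00 over all genes tested. Of 15 anti-adipogenic regulators 2 were called. Wnt10b, a ligand that blocks fat cell formation, fell (log2 fold change -0.68 ± 0.15, adjusted p = 0.0102). The list median was 0.02. Within line 1 none of these genes was called in edgeR, and within line 2 there were 3 adipogenic (2 higher, 1 lower) and 4 anti-adipogenic (2 higher, 2 lower) calls, against 12.5% of all genes in line 2. Between the WT lines 5 adipogenic (3 higher, 2 lower) and 6 anti-adipogenic regulators (3 higher, 3 lower) were called, against 14.0% of all genes. Wnt10b was at 5.03 CPM in WT line 1 and 17.5 CPM in WT line 2, and Hes1, another of the anti-adipogenic list, was at 78.8 and 49.5 CPM. Of the brown fat regulators, Prdm16 was at 15.4 and 7.21 CPM, and Ppargc1a, called higher, at 0.218 and 0.719 CPM. The Ppargc1a call (log2 fold change 1.72) was lost in 4 of 12 fits with 1 library left out, among them that without WT line 2 replicate 1, where the log2 fold change was 1.09.

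Genes of lipid storage and of lipase handling were called in both directions. The counts over both lines here and in the lists that follow stand against 13.2% of all genes called, those within line 1 against 3.20% and those within line 2 against 12.5%. Of 26 adipocyte lipid and adipokine genes 17 were tested, and 2 were called over both lines, with a list median of 0.06. Pdk4, which restrains glucose oxidation, rose from 54.1 to 99.2 CPM in line 1 and from 28.9 to 69.1 CPM in line 2 (log2 fold change 1.06 ± 0.12, edgeR adjusted p = 0.000169). Dgat1, which makes triglyceride, fell by 0.38 on the log2 scale (adjusted p = 0.00372). Of 14 partners of lipoprotein lipase 9 were tested and 3 called, with a list median of -0.18. Hspg2, the gene of perlecan, fell from 963 to 501 CPM in line 1 and from 881 to 436 CPM in line 2 (-0.98 ± 0.17, adjusted p = 0.00259). Lmf1, the maturation factor of the lipase, fell (-0.32 ± 0.08, adjusted p = 0.0169), while Apoe rose (0.63 ± 0.19, adjusted p = 0.0497). The Apoe call was lost in 9 of 12 fits with 1 library left out. Within line 2, 1 lipid gene and 1 lipase partner were called higher and 1 and 2 lower, and within line 1 only 1 lipid gene was called, as higher. Between the WT lines, the related endothelial lipase gene Lipg was higher in line 2 by 3.29 ± 0.32 on the log2 scale.

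Upstream of Cebpb and Cebpd, 17 of 18 listed cytokine, CREB and glucocorticoid genes were tested and 2 were called over both lines. The coactivator gene Crebbp rose (0.56 ± 0.09 on the log2 scale, edgeR adjusted p = 0.00240) and the receptor gene Il6ra fell (-0.64 ± 0.17, adjusted p = 0.0313), a call lost in 7 of 12 fits with 1 library left out. The list median was -0.08. Within line 2 there were 2 calls, both higher, and within line 1 none in edgeR. Lif, a cytokine of the IL-6 family, was at 12.5 CPM in WT line 1 and 29.0 CPM in WT line 2, a log2 fold change of 1.21 (edgeR adjusted p = 0.0184). It was 0.75 without WT line 2 replicate 1, and the call was lost without WT line 1 replicate 1 or 2.

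Of 21 osteogenic regulators 19 were tested, and 2 were called over both lines with small effects: Twist1 fell by 0.27 and Wwtr1, the gene of TAZ, rose by 0.20 on the log2 scale. These calls were lost in 7 and 5 of 12 fits with 1 library left out, and the list median was 0.07. Among the 16 tested of 20 osteoblast matrix and mineral genes (median 0.11), the phosphate transporter gene Slc20a1 was the only call, from 160 to 259 CPM in line 1 and from 151 to 199 CPM in line 2 (0.55 ± 0.09, edgeR adjusted p = 0.00142). Of 9 receptor subunits for osteopontin, all tested (median 0.27), 2 were called, both higher: Itgav (0.50 ± 0.10, adjusted p = 0.00816) and Itga5 (0.39 ± 0.10, adjusted p = 0.0290). Itga5 lost its call in 8 of 12 fits with 1 library left out. Their directions were the same in both lines, unlike that of Spp1. Within line 1, 1 regulator and 1 matrix gene were called, both higher. Within line 2 the calls were 3 regulators (1 higher, 2 lower), 3 matrix genes (2 higher, 1 lower) and 2 receptor genes, both higher, against 12.5% of all genes. Between the WT lines, against 14.0% of all genes, 7 osteogenic regulators (2 higher, 5 lower), 7 matrix and mineral genes (2 higher, 5 lower) and 3 receptor genes (all lower) were called, among them Msx1 (0.332 and 2.76 CPM in WT line 1 and WT line 2) and Pth1r, the parathyroid hormone receptor gene (21.9 and 4.90 CPM).

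Beside Sox9, 3 of the 11 tested among 13 chondrogenic regulators were called over both lines, with a list median of -0.10. Gdf5, the joint growth factor gene, fell by 2.03 on the log2 scale (edgeR adjusted p = 0.00386) from low levels of 0.466 and 2.24 CPM in the WT groups. Nkx3-2 rose by 0.54 and Foxa2 by 1.08 on the log2 scale, and these calls were lost in 8 and 9 of 12 fits with 1 library left out. Of 20 cartilage matrix genes 14 were tested (median 0.09) and 1 was called: Col11a1 rose from 633 to 794 CPM in line 1 and from 184 to 343 CPM in line 2 (0.61 ± 0.14, adjusted p = 0.0113). Col2a1, a direct target of SOX9, had a log2 fold change of 0.25 ± 0.11 (adjusted p = 0.153). Within line 1 the only call on both lists was 1 matrix gene, as higher, and within line 2 there were 2 regulators, both lower, and 2 matrix genes, 1 in each direction. Between the WT lines, Col2a1 was lower in line 2 by a log2 fold change of -1.20 ± 0.16 (edgeR adjusted p = 0.000538), as was Sox9, and Col9a1 was lower by -3.86 ± 0.63 (adjusted p = 0.00206; -4.49 without WT line 2 replicate 2). Other genes of these lists were higher in WT line 2: Gdf5 by 2.27 ± 0.47 (adjusted p = 0.00823; 2.92 without WT line 1 replicate 1) and Hapln1, a link protein gene, by 5.02 ± 0.40 (adjusted p = 2.4e-05) from 0.0649 CPM in WT line 1. Col10a1 had a log2 fold change of 1.46 ± 0.78 (adjusted p = 0.259). Of the regulators 2 were called higher and 2 lower, and of the matrix genes 1 higher and 3 lower, against 14.0% of all genes called.

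Over the 12 libraries, the genes with the pattern most like each member were named by Pearson's r of log2 CPM among 12239 genes (12240 for Alpl), as a description in which libraries share group, line and interferon state. Crabp2, a retinoic acid carrier, followed Fabp4 (r = 0.982), with 9.20 and 10.3 CPM in WT and RTF2-deficient line 1 and 44.8 and 23.3 CPM in line 2. Cyp26b1, which degrades retinoic acid, followed Sox9 (r = 0.967). Cebpb was most like Pmm1 (r = 0.975), Dcxr and Col10a1 (r = 0.965), and Pparg most like Naaa (r = 0.968). Cebpd was most like Tmem64 (r = 0.971), Runx2 like Ptpn14 (r = 0.955) and Spp1 like H4bc24 (r = 0.940). Lpl (Slc25a26, r = 0.926), Cebpa (Slbp, r = 0.902) and Alpl (Map7d3, r = 0.897) had the weakest neighbours. Among the members themselves, Pparg and Cebpb were the closest pair (r = 0.892).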

How the data were processed

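RNA-seq libraries of 12 MEF samples were grouped by the genotype label, 3 per genotype and line. The deposited values were whole-number counts for each Entrez Gene identifier, without normalization. The study's methods describe quantification with Salmon and tximport on mm10 gene models, while HTSeq and mm10 stand in the processing notes of the submitters. Whether counting used strand is not given in the sources used here, so reads of overlapping genes may be mixed. Symbols were found for 24045 of the 24100 identifiers, and 4418 genes had no count. Positions, exon overlaps and lengths of the longest principal transcript came from GENCODE M21, promoters from RefSeq (GRCm38.p6).

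Fits ran in R 4.3.3 with edgeR 4.0.16 and, as an alternative, DESeq2 1.42.0 (limma 3.58.1 was loaded with edgeR). Genes past filterByExpr on the 4 groups were TMM-normalized and tested with glmQLFit and glmQLFTest, two-sided, with terms for line and genotype, or as contrasts of the 4 groups. P-values were adjusted over all genes tested in the same fit, which were 14263 unless another filter or a left-out library changed that number. The SE of a log2 fold change was its size over the root of its F statistic, without shrinkage. Library totals of 39360167 to 44695002 put 3 counts, the limit that no count allows, at 0.0671 to 0.0762 CPM, for counting error only. Replicates of a group differed by far more than sampling noise (chi-square per degree of freedom of 20.5 to 180), so all libraries were kept.

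The members, gene lists and tests were chosen with earlier results of these data known. Genes named beyond the members were, per list, up to 4 with the largest called change by genotype and up to 2 between the WT lines, and 3 neighbours per member by correlation, of which the text gives a selection. A result among the listed regulators is not reported here. Genes of the marker lists, the sex-linked genes and the overlapping genes are named as checks. The alternatives were other normalizations and filters, DESeq2, a replicate block, no line term, summed triplicates and each library left out. An interferon term, leaving out both libraries with the highest scores, and a replicate block in 3 groups were added after seeing the data. Replicate numbers in the labels paired the WT groups and RTF2-deficient line 1 (every same-number correlation of deviations over 0.1, from 0.287 to 0.625), but not RTF2-deficient line 2, whose libraries followed the others under shifted numbers. The fits were tested on simulated data. Of simulated log2 changes of 0.7 in size, 67.3% were called over both lines, 47% within line 2 and 16% for the difference between lines.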

Additional observations from a re-analysis of the deposited data

Results flagged for a closer look

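Among 22 sets of 6 libraries, each of 1 genotype over both lines (the level of 1 of the 10 genes, or the total count), 3 held a library set apart from the others by more than Dixon's 95% critical value, where chance gives about 5% of sets. Lpl was at 4.58 CPM in WT line 1 replicate 3, and the next of the WT libraries was at 3.80 CPM. Alpl was at 2.08 CPM in WT line 1 replicate 1, and the next WT library was at 0.630 CPM. RTF2-deficient line 2 replicate 2 had a total of 39360167 counts, and the next RTF2-deficient library had 41877556.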

How the results depend on the processing

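Of the log2 fold changes of the 10 genes, 399 kept their direction and side of the threshold under alternatives other than leaving out 1 library, 18 became calls, 9 lost a call and 9 turned; with 1 library left out the numbers were 531, 18, 26 and 25. The members called were 0 over both lines, 0 in line 1, 2 in line 2, 0 for the difference between lines and 4 between the WT lines. In line 2 this became 1 with upper quartile normalization, no filter or the replicate block, and between the WT lines 3 with upper quartile normalization or the 1 CPM filter, which lost Sox9. Of all genes, these fits called 12.5%, 7.88% and 11.4% in line 2, and 13.9% and 14.0% between the WT lines. Summed triplicates gave 0 members and 0 of 14263 genes over both lines in edgeR. DESeq2 gave 3, 1, 4 and 1 for the first 4 comparisons. The replicate block gave 2 over both lines in edgeR, Cebpa (adjusted p = 0.0392) and Sox9 (0.0262), where 11.5% of all genes were called. Deviations of same-numbered samples correlated from 0.287 to 0.625 in all 9 pairs of the WT groups and RTF2-deficient line 1, and from -0.587 to 0.170 in the 9 pairs with RTF2-deficient line 2, so the numbers pair the former and not the latter. RTF2-deficient line 2 followed the other groups under shifted numbers. Its replicates 3, 1 and 2 correlated with WT line 2 replicates 1 (0.654), 2 (0.612) and 3 (0.367). The replicate block over all groups used the label numbers and so did not match these libraries. A block on the shifted numbers was not tested. A replicate block in the 3 paired groups, added after seeing the data, gave 0 members in line 1 (7.66% of all genes) and 7 between the WT lines (26.6%), and changed no other call of a member in these 2 comparisons than the 3 gained. The interferon term gave 1 over both lines, 1 in line 1, 2 in line 2 and 4 between the WT lines. Past a log2 fold change of 1 were 1 of the 2 in line 2 and 3 of the 4 between the WT lines. Leaving out both libraries with the highest scores gave 1, 1 and 1 over both lines, in line 1 and in line 2, and 2 between the WT lines. Of all genes, 13.0%, 5.22%, 14.4% and 19.5% were called with the term in these comparisons, and 13.4%, 4.33%, 13.5% and 11.6% without both libraries. Without the line term Spp1 was -0.085 over both lines. With the interferon term Runx2 was 0.027 over both lines and 0.061 in line 1, Pparg 0.066 and Alpl 0.078 in line 1, and Cebpa -0.49, Cebpb -0.085 and Runx2 -0.18 between the WT lines; Cebpd in line 2 was -0.080 without both libraries. The causes were not tested.

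With each library left out in turn, the members called were 0 to 3 over both lines (3 without RTF2-deficient line 1 replicate 1), 0 to 1 in line 1 (1 without WT line 2 replicate 1), 0 to 3 in line 2 (0 without RTF2-deficient line 2 replicate 1 or 2, 3 without its replicate 3) and 2 to 5 between the WT lines (2 without WT line 2 replicate 1 or 3). The share of all genes called moved too, over both lines from 7.998% to 13.7%, in line 1 from 1.33% without RTF2-deficient line 1 replicate 2 to 3.33% without WT line 2 replicate 1, between the WT lines from 8.69% without WT line 1 replicate 2 to 15.4% (9.76% and 10.1% without WT line 2 replicate 1 and 3) and in line 2 from 5.61% without RTF2-deficient line 2 replicate 2 to 16.4% without its replicate 3. Log2 fold changes that turned ranged over both lines from -0.14 to 0.027 for Cebpd and -0.072 to 0.43 for Spp1. In line 1 they ranged from -0.36 to 0.23 for Pparg, -0.36 to 0.0078 for Cebpd, -0.21 to 0.11 for Fabp4, -0.075 to 0.14 for Lpl, -0.18 to 0.10 for Runx2 and -1.33 to 1.05 for Alpl. Cebpd in line 2 ranged from -0.053 to 0.16. For the difference between lines the ranges were -0.048 to 0.65 for Cebpa, -0.16 to 0.49 for Sox9 and -2.30 to 0.085 for Alpl, and between the WT lines -0.062 to 0.61 for Cebpa and -1.26 to 1.11 for Alpl. Alpl had 2 to 87 reads per library. WT line 1 replicates 1 and 2 had 87 and 6 of them, at library totals of 41461713 and 41403910 counts. The cause of this spread was not tested.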
